A study of Mus musculus with 44 samples.

Results

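Type I interferon response genes were followed across 43 lymphomas of Eµ-myc mice and 1 spleen of an Eµ-myc mouse. They were chosen by name: Irf7, Stat2, Usp18, Isg15, Oasl2, Rsad2, Ifit1, Ifit2 and Ifit3. Of these 9 genes, 8 had at least 1 probe set annotated to them alone, 11 probe sets in all, and these 8 all passed the filter on low values (above the median of its set in at least 1 array), as did 8721 of 12393 genes. The probe set listed for Isg15 was also listed for Gm9706, so Isg15 stayed out of every count of levels. The promoter counts hold Isg15 and lack Usp18. Eµ-myc mice carry a Myc transgene under the immunoglobulin heavy chain enhancer, which is active in B lineage cells, and every array in the series came from this genotype. The lymphomas had been taken when mice showed disease, and the RNA came from frozen tissue or from pelleted cells. The labels give neither the route of each array nor the age of a mouse, and they do not state that every lymphoma came from a different animal, so p-values measure the spread between these samples. The spleen is likewise labelled Eµ-myc, with no word on whether it was free of lymphoma cells.

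A cell that senses foreign nucleic acid releases type I interferons, which bind a receptor built of Ifnar1 and Ifnar2. The kinases Jak1 and Tyk2 then phosphorylate Stat2, which acts with Irf9 in a complex that binds interferon-stimulated response elements in the promoters of its target genes. Irf7 amplifies the response by driving more interferon, and Usp18 ends it by holding off the receptor and by removing the ubiquitin-like protein Isg15 from its targets. Oasl2, Rsad2 and the Ifit genes encode antiviral effectors. Macrophages, dendritic cells, T cells and B cells can all express these genes.

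Promoter windows of 300 bases, 250 before and 50 after the start site, were read from a RefSeq table of the mouse build GRCm38.p6. Of the 9 genes 8 had an entry, all but Usp18. The response element core, spelled GAAA, any 2 bases, then GAAA, searched on both strands (TTTC, any 2 bases, then TTTC on the other), occurred in 3.44% of all 32851 windows and in the windows of 5 of the 8 genes. The stretches around the matches are printed 5′ to 3′ on the gene's strand with each match in capitals, because the genes that carry them include the pair with the highest Pearson's r over the 43 lymphomas (Ifit1 and Ifit3) and the gene that stood highest in the spleen (Rsad2). The Ifit1 stretch lies at chr19:34640765-34640833 (+), the Ifit3 stretch at chr19:34583353-34583436 (+), the Rsad2 stretch at chr12:26456543-26456592 (-), the Isg15 stretch at chr4:156200855-156200916 (-) and the Stat2 stretch at chr10:128270256-128270305 (+).
Ifit1: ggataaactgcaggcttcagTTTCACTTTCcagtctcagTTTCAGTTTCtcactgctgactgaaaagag
Ifit3: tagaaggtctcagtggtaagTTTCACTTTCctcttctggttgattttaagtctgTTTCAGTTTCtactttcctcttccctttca
Rsad2: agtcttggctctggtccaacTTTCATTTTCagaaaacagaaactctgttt
Isg15: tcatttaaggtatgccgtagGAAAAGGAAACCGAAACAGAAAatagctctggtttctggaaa
Stat2: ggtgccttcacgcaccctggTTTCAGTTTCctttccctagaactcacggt
The Ifit1 and Ifit3 windows shared both matched decamers, TTTCACTTTC 104 and 156 bases before the start site and TTTCAGTTTC 85 and 122 bases before it. The Stat2 window held TTTCAGTTTC 222 bases before its start. The Rsad2 window held TTTCATTTTC 120 bases before its start. In the Isg15 window 3 overlapping matches began 78, 72 and 66 bases before the start and ran into each other. The windows of Irf7, Oasl2 and Ifit2 (2 windows) held no match to these letters. Irf7 and Oasl2 were also an alike pair over the 43 lymphomas (r 0.96). Stat2, which has a match, had the lowest r to the mean of the others (0.63). Whether a match goes with likeness was not tested. TTCNNNGAA, the core bound by Stat dimers after interferon gamma, is its own reverse complement and occurred in 8.30% of all windows. Among the 8 genes with an entry it lay in 1 Ifit2 window, 241 bases before the start.

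In the RefSeq table Irf7 lies on chromosome 7 (141263183 to 141266499), Stat2 on chromosome 10 (128270498 to 128292853), Usp18 on chromosome 6 (121245906 to 121270917), Isg15 on chromosome 4 (156199424 to 156200818), Oasl2 on chromosome 5 (114896926 to 114912245) and Rsad2 on chromosome 12 (26442743 to 26456452). Ifit2 (34550550 to 34576534), Ifit3 (34583119 to 34588982) and Ifit1 (34640889 to 34650009) neighbour each other on chromosome 19, and Ifit1bl1, Ifit3b and Ifit1bl2 start between the starts of Ifit3 and Ifit1. Ifit3b is a near copy of Ifit3, and whether the Ifit3 probe set also read it was not tested.

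Levels are deposited log2 values. Arrays are named by the number in their title (D59). They fall into 2 sets by this number: column medians ran from 6.22 to 6.46 in the 36 low-numbered lymphomas, up to and with D117, and from 6.86 to 7.02 in the high-numbered arrays (7 lymphomas and the spleen). Levels were therefore either given per set or centred on the lymphoma mean of the array's own set, and every fit held a term for the set. Among the markers of B cells 7 of 8 passed the filter, and 0 of these 7 differed between the spleen and the lymphomas at an adjusted p of 0.05, with a median difference of -1.73. Markers of other cells differed in the spleen: all 6 erythroid and 5 of 7 neutrophil marker genes were called higher, with median differences of 6.91 and 5.47 on the log2 scale, as were 3 of 10 stroma and endothelium genes (median 3.42) and 2 of 11 macrophage genes (median 2.72), while 0 of 11 T cell genes (median -0.85) and 0 of 5 NK cell genes (median -0.48) were called. In these bulk samples fewer cells of a type and less RNA per cell cannot be told apart.

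Rsad2, the antiviral enzyme viperin, stood out in the spleen. Its brightest probe set read 13.92 in the spleen, against a lowest, median and highest level of 6.33, 6.71 and 8.39 in the 7 high-numbered lymphomas and of 6.07, 6.66 and 12.83 in the 36 low-numbered ones. After centring, the spleen lay above all 43 lymphomas for Rsad2 and for none of the other 7 genes. Over all genes tested the spleen lay above every lymphoma in 9.28% and below every one in 13.6%. The spleen minus lymphoma difference was 6.996 ± 1.25 (SE, limma, adjusted p = 5.49e-05), where spleen and lymphomas share a spread taken from the lymphomas because there was 1 spleen. The other Rsad2 probe sets read 11.72 and 12.88 in the spleen, against highest levels of 8.66 and 10.99 among the lymphomas, so all 3 placed the spleen on top. With T cell and macrophage marker scores in the model the difference was 5.26. Without the 5 lymphomas highest in the mean of the 8 genes it was 7.24 ± 0.40. That choice uses the level of the genes themselves and narrows their spread.

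Of the 8 genes 1 was called higher in the spleen (Rsad2) and 0 lower, against 7.60% and 5.79% of all genes. The median difference of the 8 was 1.92, beside -0.16 over all genes tested. Usp18, the protease that restrains the response, read 9.30 in the spleen, against 5.26, 6.23 and 7.07 (lowest, median, highest) in the 7 high-numbered lymphomas and 4.34, 5.60 and 9.93 in the 36. The difference of 3.04 ± 1.28 did not pass (adjusted p = 0.107). Ifit1, which binds viral RNA that lacks the host's cap methylation, read 8.61 in the spleen, against 4.90, 5.54 and 6.71 in the 7 and 4.16, 4.95 and 11.14 in the 36. Its difference was 2.85 ± 1.38 (adjusted p = 0.166). Oasl2, a member of the oligoadenylate synthetase family, read 7.27 in the spleen, against 4.58, 4.73 and 6.50 in the 7 and 3.41, 4.09 and 9.26 in the 36. Its difference was 2.29 ± 1.18 (adjusted p = 0.196). For these 3 genes the spleen lay above every lymphoma of its own set, and after centring it lay below 1 (Usp18), 2 (Ifit1) and 3 (Oasl2) of the 43.

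Ifit3, which pairs with Ifit1 in RNA binding, read 7.17 in the spleen, against 5.26, 5.58 and 6.25 in the 7 and 4.22, 5.22 and 11.32 in the 36 (difference 1.55 ± 1.32, adjusted p = 0.459). Irf7, the transcription factor that amplifies interferon production, read 9.17 in the spleen, against 7.39, 7.59 and 9.04 in the 7 and 6.11, 6.85 and 10.58 in the 36 (difference 1.42 ± 0.89, adjusted p = 0.294). Stat2, the signal transducer of the receptor, read 7.10 in the spleen, against 6.14, 6.66 and 7.07 in the 7 and 5.81, 6.17 and 7.56 in the 36 (difference 0.45 ± 0.38, adjusted p = 0.461). The second Stat2 probe set read 6.09 in the spleen, against 5.39, 5.72 and 5.86 in the 7 and 4.73, 5.13 and 5.75 in the 36, and its r to the first was 0.77 over the 43 lymphomas. In each of these 3 the spleen was just above or above the highest of the 7. Ifit2, the next gene of the Ifit cluster, read 7.45 in the spleen, against 6.86, 7.40 and 8.77 in the 7 and 5.97, 6.90 and 11.61 in the 36, with a difference of -0.03 ± 0.99 (adjusted p = 0.989). After centring, 18 lymphomas lay above the spleen for Ifit2 and 25 below it. The probe set listed for Isg15 and Gm9706 read 11.57 in the spleen, against 5.77, 6.76 and 8.001 in the 7 and 5.47, 6.28 and 9.79 in the 36.

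**Figure D1:**
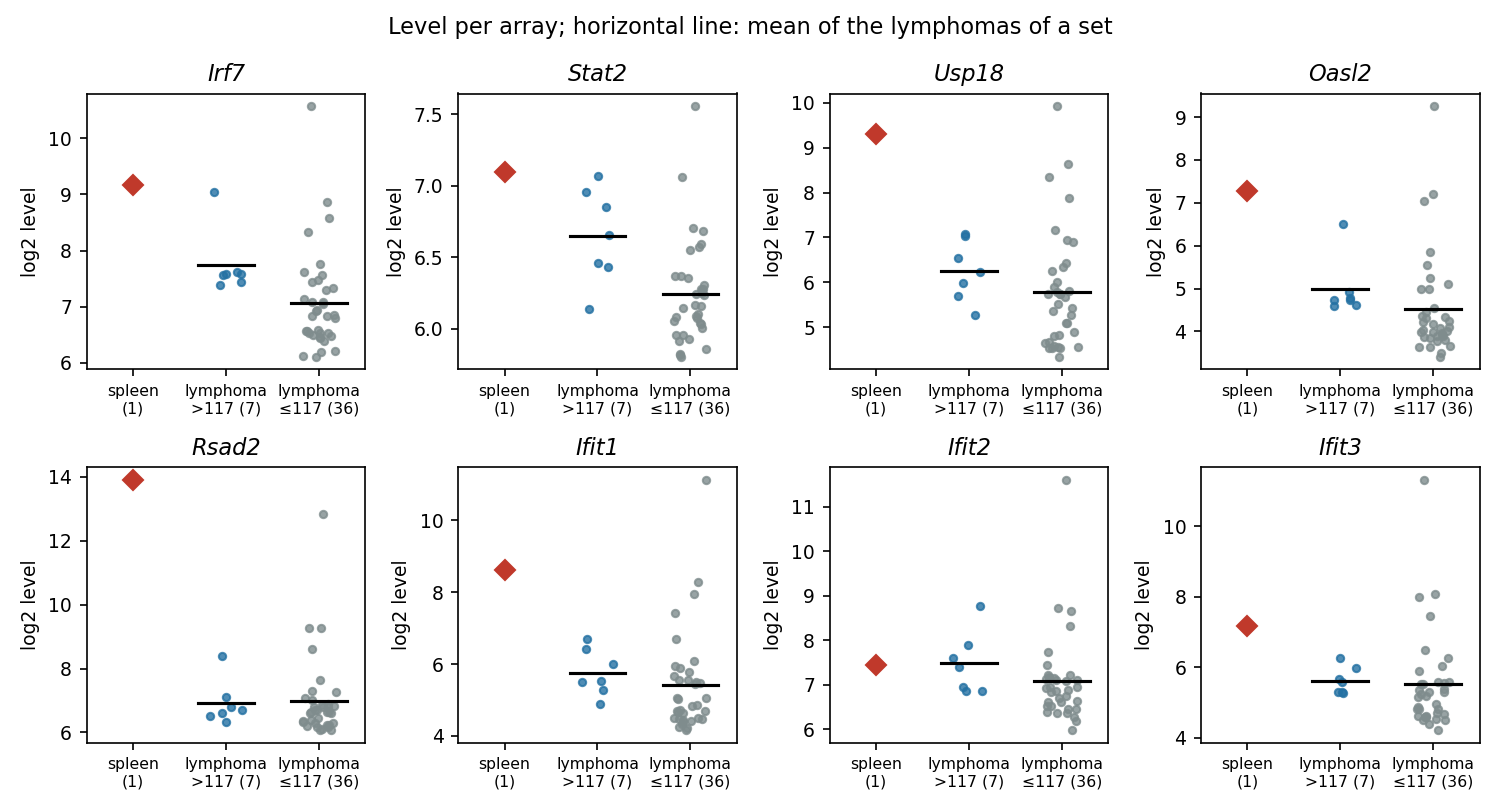
Log2 level of the 8 genes in each array (y axis), with the spleen as a red diamond, the 7 high-numbered lymphomas as blue points and the 36 low-numbered ones as grey points; horizontal lines are the means of the lymphomas of a set. Rsad2 in the spleen (13.92) lies above every lymphoma, and Ifit2 in the spleen (7.45) lies inside the range of both sets.

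Without D59 alone 2 were called (Rsad2, and Ifit1 with a difference of 2.85 ± 1.02), with 8.91% of all genes called higher. Without the 5 lymphomas highest in the mean of the 8 genes 6 were called, all higher in the spleen, and 11.5% of all genes were. Those 6 were Rsad2 (7.24 ± 0.40), Usp18 (3.17 ± 0.81), Ifit1 (3.01 ± 0.67), Oasl2 (2.54 ± 0.51), Ifit3 (1.66 ± 0.57) and Irf7 (1.63 ± 0.45), while Stat2 was at 0.51 ± 0.31 and Ifit2 at 0.04 ± 0.49. Leaving lymphomas out by the level of the genes themselves narrows their spread, so the second count describes those 38 lymphomas only. Among the 38, Oasl2 never lay above the level of the filter, and Ifit1 and Ifit3 did so in D117 alone. Their differences thus set the spleen against values not shown to be above background. Over all 43 lymphomas most values of these genes and of Usp18 also lay below that level.

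Among the lymphomas the genes were high in few tumours. The mean of the 8 genes, each centred within its set, was 4.45 in D59, 2.04 in D46, 1.83 in D78, 1.67 in D52 and 0.94 in D163, and it was 0.64 in D117, the next one, and -0.93 in the lowest. The spleen stood at 2.32 on this scale. In D59 all 8 genes lay at least 1 log2 unit above the mean of their set, as did 7 in D46, D78 and D52 (all but Stat2), 3 in D163 and 2 in D117. D163 was the only high-numbered one of these. D59 was the highest lymphoma for all 8 genes, and it was also the highest for 9.82% and the lowest for 12.9% of all 8721 genes. Of all genes 12.5% lay at least 1 unit above the mean of their set in D59, against 7.41% to 8.49% in D46, D78, D52 and D163.

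**Figure D2:**
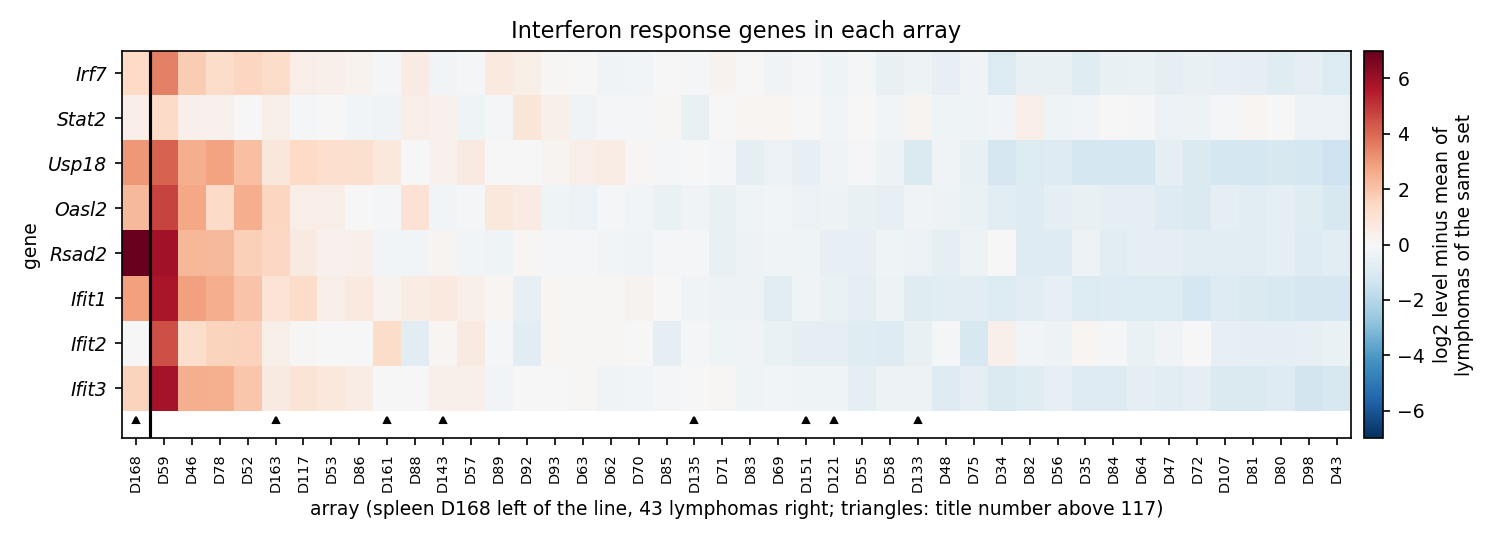
Set-centred log2 levels (colour, red above and blue below the lymphoma mean of the array's set) of the 8 genes (rows) in the spleen (left of the line) and the 43 lymphomas (right, ordered by the mean of the 8 genes). D59, D46, D78 and D52 are red in nearly every row, Stat2 is pale throughout, and the spleen is red in Rsad2 (6.996) and near 0 in Ifit2 (-0.03).

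Irf7 lay above the median level of its set, the level of the filter, in 39 of 43 lymphomas, Ifit2 in 38, Rsad2 in 30, Stat2 in 14, Usp18 in 11, Ifit1 and Ifit3 in 5 each and Oasl2 in 3. Low values of Stat2, Usp18, Ifit1, Ifit3 and Oasl2 were therefore not shown to be above background. For this reason the log2 range between the lowest and the highest lymphoma is given with no fold. It was 7.10 for Ifit3, 6.98 for Ifit1, 6.76 for Rsad2, 5.85 for Oasl2, 5.63 for Ifit2, 5.59 for Usp18, 4.47 for Irf7 and 1.83 for Stat2. The SD about the set means was 1.33 for Ifit1, 1.27 for Ifit3, 1.23 for Usp18, 1.21 for Rsad2, 1.14 for Oasl2, 0.95 for Ifit2, 0.86 for Irf7 and 0.36 for Stat2. An SD of 1 or more was thus reached by 5 of 8 genes, beside 6.97% of all genes, whose median SD was 0.34. Without D59 it was reached by 1 (Usp18, 1.06), and without the 5 highest lymphomas by 0. In those 38 lymphomas Usp18 still varied most (SD 0.77), followed by Ifit1 (0.64) and Ifit3 (0.54), and Stat2 least (0.28). The scaled median absolute deviation, which a few arrays cannot widen, was 1.17 for Usp18 and 0.85 or less for the other 7. By this measure Rsad2 (0.51) and Oasl2 (0.42) varied less than Usp18.

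**Figure D3:**
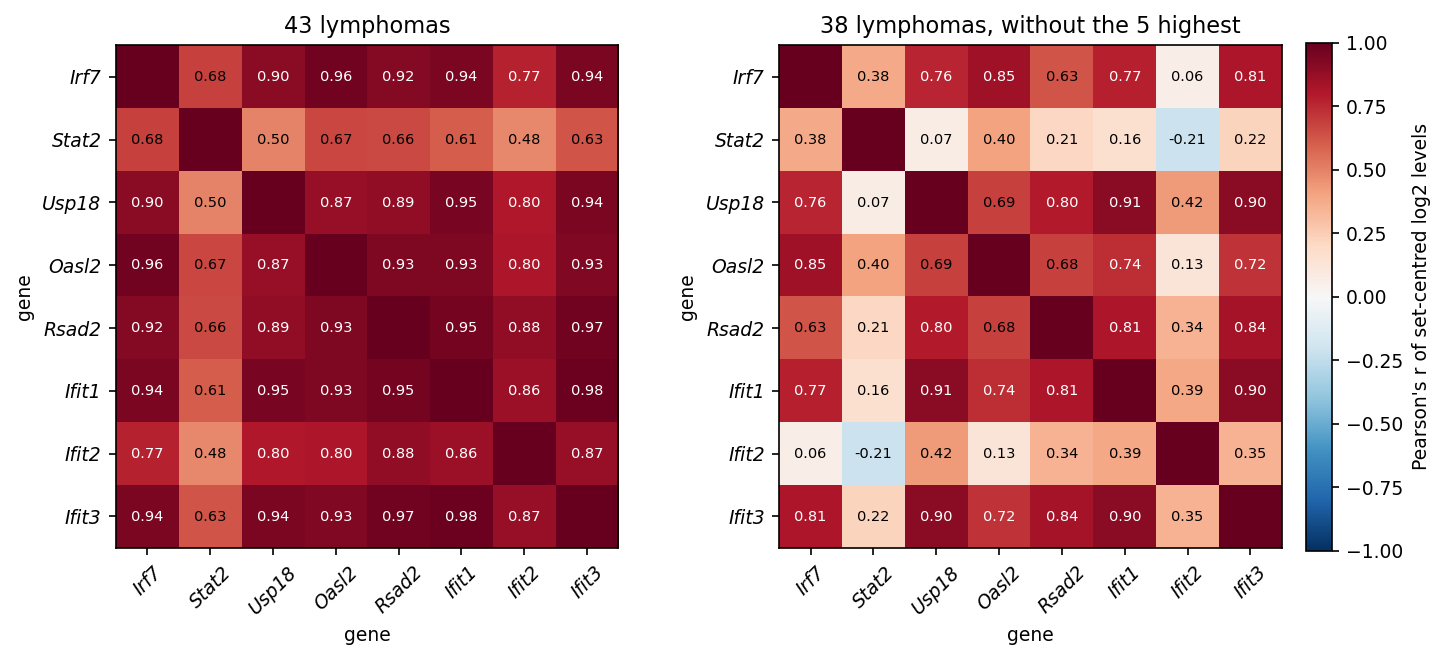
Pearson's r between set-centred log2 levels for every pair of the 8 genes (both axes), over the 43 lymphomas (left) and over the 38 without the 5 highest (right), on a colour scale from -1 to 1. The Ifit1 and Ifit3 cell reads 0.98 and 0.90, while the Ifit2 and Stat2 rows pale in the right panel.

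The genes varied together, and how far depended on the 5 highest lymphomas. Over the 38 others the mean r of the 28 pairs was 0.53, against 0.83 over all 43, where all pairs share the same arrays and the choice of the genes was made with their likeness known, so no p is given. Irf7, Oasl2, Rsad2, Usp18, Ifit1 and Ifit3 kept their likeness: the r of each to the mean of the other 7 genes lay between 0.77 (Oasl2) and 0.93 (Ifit3) in the 38. The most alike pairs there were Usp18 with Ifit1 (0.91), Ifit1 with Ifit3 (0.90) and Usp18 with Ifit3 (0.90). Over all 43 lymphomas Oasl2 lay above the level of the filter in 3, Ifit1 and Ifit3 in 5 each and Usp18 in 11. Most values behind the r of these genes were thus not shown to be above background. Ifit2 and Stat2 were the exceptions, with r to the others of 0.30 and 0.20 in the 38, against 0.85 and 0.63 over all 43. Stat2 lay above the level of the filter in 14 of the 43, which limits its r too. Between Ifit2 and Stat2 r was -0.21 in the 38 and 0.48 over all 43. Ifit2 was thus less like its chromosomal neighbours Ifit1 and Ifit3 once the highest lymphomas were set aside (r 0.39 and 0.35). Most Ifit1 and Ifit3 values there lay below the level of the filter, which limits this comparison. In the 7 high-numbered lymphomas the mean r was 0.65.

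Over the 43 lymphomas Ifih1, a sensor of long double-stranded RNA also called Mda5, had the highest r to that mean (0.93), followed by Ddx60 (0.91), Mx1 (0.90), Cxcl10 (0.90) and Parp12 (0.89), which were named after their values were seen. In the 38 lymphomas without the 5 highest their r was 0.71 (Ifih1), 0.54 (Ddx60), 0.57 (Mx1), 0.65 (Cxcl10) and 0.68 (Parp12). Rtp4, an interferon-induced chaperone of receptors and likewise named after its values were seen, had r of 0.86 over 43 and 0.87 over the 38. Outside the pathway and marker lists the 10 nearest genes, among those with an SD of at least 0.5, were Ctla2b, Nupr1, Tmem140, Spon1, Sqor, Trafd1, Enpp4, Xdh, P2ry6 and Agrn, with r between 0.84 and 0.88. In the 38 lymphomas their r lay between 0.22 (Spon1) and 0.57 (Trafd1). The 5 genes most opposed were Pcsk4 (-0.70), Hip1r (-0.69), 2010204K13Rik (-0.67), Chchd6 (-0.66) and Nrm (-0.65).

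Most ligands themselves gave little signal. Of 16 type I interferon genes listed, 9 had a probe set of their own and 1, Ifnz, passed the filter. Ifnb1, interferon beta, was among those under the filter and was picked by name after its values were seen: it read 4.81 in the spleen, against 5.12 to 5.32 in the 7 high-numbered lymphomas and 4.48 to 5.61 in the 36, and it lay below the filter in every array. Ifnz differed by 0.39 ± 0.44 between spleen and lymphomas (adjusted p = 0.596).

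In the spleen 5 of 36 other interferon-stimulated genes were called higher and 0 lower, with a median difference of 0.67. They were Ube2l6, the conjugating enzyme that attaches Isg15 (3.82 ± 0.36, against lymphomas that all lay below the level of the filter, which the gene passed through the spleen alone), Isg20, an exonuclease (5.44 ± 1.09), Slfn4 (4.72 ± 1.16), Oas3, a synthetase of the activator of RNase L (1.77 ± 0.57), and Cmpk2, named here to complete the count (3.18 ± 1.04). Ifitm3 (3.52 ± 1.46) and Daxx (-0.55 ± 0.21) were not called. Of 11 sensors and adaptors Zbp1, a sensor of Z-form nucleic acid, was higher (4.68 ± 1.18), and of 4 receptors and kinases the receptor chain Ifnar2 was (2.19 ± 0.75). Of 11 class I presentation genes the immunoproteasome subunit Psmb10 was lower (-1.27 ± 0.30). None of 5 signalling transcription factors, 8 restraining genes and 16 interferon gamma GTPases and chemokines was called. In the spleen, erythroid and neutrophil markers were higher too (above), and their part in these differences was not tested.

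The lymphomas carry no further grouping in the labels, so the genes were regressed on Myc, on Cdkn2a and on marker scores. Each score is the mean set-centred level of a marker list. Most values of Oasl2, Ifit1, Ifit3, Usp18 and Stat2 lay below the level of the filter, which limits their slopes in all these fits. Myc is the oncogene of the model, and its probe set does not part the transgene from the native gene. Of the 8 genes 6 fell with Myc and 0 rose, where 16.9% of all genes fell and 26.4% rose. The slopes were -1.21 ± 0.30 for Ifit1 (adjusted p = 0.00127), -1.13 ± 0.25 for Oasl2 (0.000313), -1.12 ± 0.28 for Usp18 (0.00128), -1.03 ± 0.30 for Ifit3 (0.0049), -0.94 ± 0.29 for Rsad2 (0.00698) and -0.87 ± 0.18 for Irf7 (0.000225), in log2 units per log2 unit of Myc. Ifit2 (-0.51 ± 0.24, adjusted p = 0.0799) and Stat2 (-0.21 ± 0.09, adjusted p = 0.0597) did not pass, and whether their slopes differ from the others was not tested. Set-centred Myc was -1.07 in the spleen, between -1.25 and -0.57 in the 5 highest lymphomas and between -1.31 and 0.98 in the other 38.

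Without D59 the count was again 6, beside 17.1% of all genes. Without the 5 highest lymphomas 5 of 8 genes fell, with slopes of -0.43 to -0.60, where 10.7% of all genes fell. Rsad2, at -0.24 ± 0.11, no longer passed. The 5 lymphomas were chosen by the level of the genes themselves and rank between 35 and 42 of 43 in Myc. That fit therefore lacks the top of the genes' range and much of the low end of Myc. In the 38 others Oasl2 never lay above the level of the filter, and Ifit1 and Ifit3 did so in D117 alone. This limits their slopes in every fit without the 5 highest. In the 36 low-numbered lymphomas alone 6 of 8 fell with Myc (slopes -0.88 to -1.29 for those), beside 13.9% of all genes, and in the 7 high-numbered ones none passed, with slopes of -0.24 to -1.01 and 0.367% of all genes called lower. With the T cell and macrophage scores in the model 0 of 8 passed, and the slopes lay between -0.32 and 0.02, when 3.21% of all genes fell.

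Interferon and antigen presentation genes outside the 8 also fell with Myc. Of 36 other interferon-stimulated genes 20 fell and 1 rose (median slope -0.47, against 0.03 over all genes). Examples are Helz2 (-1.15 ± 0.15), Isg20 (-1.35 ± 0.19), the growth regulator Slfn2 (-1.13 ± 0.20) and Uba7, the activating enzyme for Isg15 (-0.55 ± 0.11), while Trim30a (-0.54 ± 0.25) and Oasl1 (-0.36 ± 0.17) were not called. Of 16 genes of the interferon gamma list 13 fell and 0 rose, among them the receptor chain Ifngr1 (-0.50 ± 0.09) and the chemokine Cxcl9 (-1.79 ± 0.34). Of 11 class I presentation genes 10 fell, among them the peptide transporter Tap2 (-0.62 ± 0.08) and the proteasome subunit Psmb9 (-0.74 ± 0.11). Of 5 transcription factors 4 fell, led by Irf1 (-0.92 ± 0.15) and Irf9 (-0.62 ± 0.14), and of 11 sensors and adaptors 7 fell and 1, Mavs, rose. T cell markers fell with Myc as well (10 of 11 genes, median slope -1.10), as did 4 of 5 NK cell and 6 of 11 macrophage markers. The part of NK cell markers in the slopes on Myc was not tested.

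Macrophage markers moved with all 8 genes. Of 10 stroma and endothelium markers 9 rose with the macrophage score too (median slope 0.61), and their part in the slopes was not tested. The slopes on the macrophage score (11 genes, among them C1qa, Csf1r and Adgre1) were 0.79 ± 0.12 for Rsad2, 0.77 ± 0.11 for Oasl2, 0.75 ± 0.14 for Ifit1, 0.70 ± 0.14 for Ifit3, 0.61 ± 0.14 for Usp18, 0.53 ± 0.09 for Irf7, 0.50 ± 0.11 for Ifit2 and 0.15 ± 0.04 for Stat2. All 8 rose with the score, where 17.7% of all genes rose and 27.2% fell (adjusted p from 3.17e-07 for Oasl2 to 0.00533 for Stat2). The score was 2.78 in the spleen, 3.40 in D59, 2.60 in D163, 2.17 in D52, 1.37 in D78 and 1.33 in D46, and it ran from -1.40 to 1.58 in the other 38. Without those 5 lymphomas 0 of 8 genes rose with it, and the slopes lay between -0.06 and 0.20, when 5.89% of all genes rose. Those 5 were chosen by the level of the genes themselves and hold ranks 1, 2, 3, 5 and 6 of 43 in the score. That fit therefore lacks the top of the genes' range and most of the top of the score's range. Without D59 alone 7 rose (all but Stat2), beside 15.8% of all genes. In the 36 low-numbered lymphomas all 8 rose, beside 15.5% of all genes. In the 7 high-numbered ones Irf7 (0.43 ± 0.09) and Oasl2 (0.49 ± 0.10) rose, beside 3.51%. Among these 7, D163 stood apart from the others in both genes and had a macrophage score of 2.60. How far these slopes rest on D163 was not tested. All 7 Oasl2 values lay below the level of the filter. D59 also had the highest stroma and endothelium score (4.91, against at most 2.57 in the 38) and a B cell score of -1.20, and the part of either in its levels was not tested.

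T cell markers moved with 7 of the 8 genes, and NK cell markers (4 of 5) and neutrophil markers (5 of 7) rose with the T cell score too. Their part in the slopes was not tested. The slopes on the T cell score (11 genes) were 0.75 ± 0.18 for Ifit1, 0.74 ± 0.16 for Usp18, 0.65 ± 0.15 for Oasl2, 0.63 ± 0.18 for Ifit3, 0.54 ± 0.17 for Rsad2, 0.51 ± 0.11 for Irf7 and 0.15 ± 0.05 for Stat2 (adjusted p from 0.000398 for Irf7 to 0.019 for Stat2). Ifit2 did not pass (0.26 ± 0.15, adjusted p = 0.154). Of all genes 15.4% rose and 23.6% fell with this score. Without the 5 highest lymphomas, chosen by the level of the genes themselves, 6 of 8 rose (Stat2 no longer passed), with slopes of 0.22 ± 0.06 (Rsad2) to 0.51 ± 0.11 (Usp18), beside 9.76% of all genes. With the macrophage score in the model 5 of 8 rose with the T cell score (Ifit1, Ifit3, Irf7, Oasl2, Usp18), beside 11.4% of all genes. With the T cell score in the model all 8 rose with the macrophage score, beside 14.2% of all genes. In the 7 high-numbered lymphomas none passed, with slopes of 0.02 to 0.47, in a fit that called 1 gene of all. The T cell score was -0.85 in the spleen, between 0.47 and 2.14 in the 5 highest lymphomas and between -1.46 and 1.94 in the rest.

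**Figure D4:**
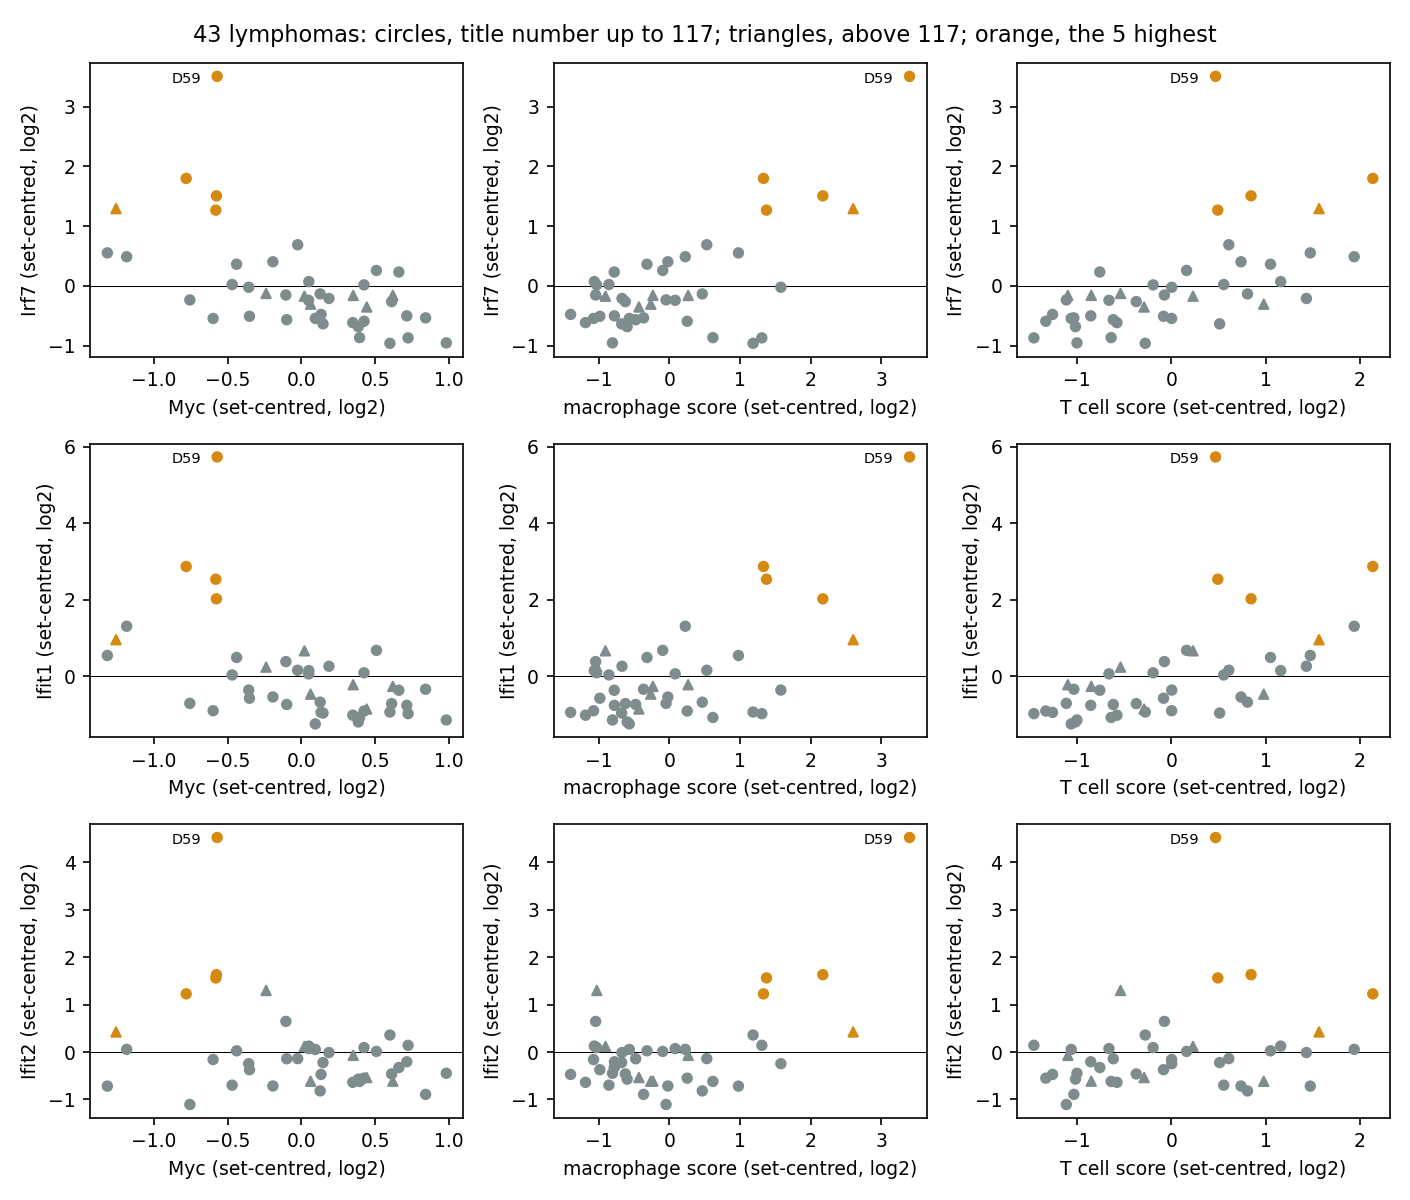
Set-centred log2 levels of Irf7, Ifit1 and Ifit2 (rows, y axes) against Myc, the macrophage score and the T cell score (columns, x axes, log2) in the 43 lymphomas; orange marks the 5 lymphomas highest in the mean of the 8 genes, and triangles the high-numbered ones. Without the 5, the slopes in the middle column are 0.02 for Ifit1 and -0.06 for Ifit2, and in the right column 0.46 for Ifit1. The 5 were chosen by the level of the genes themselves. In the order D59, D46, D78, D52 and D163 they rank 1, 6, 5, 3 and 2 of 43 in macrophage score. In T cell score they rank 16, 1, 15, 9 and 3. Leaving them out cuts the 2 scores unequally, so these slopes cannot be compared between the columns.

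Of 36 other interferon-stimulated genes 28 rose and 0 fell with the macrophage score, led by Lgals3bp (1.07 ± 0.11), Ifi204 (0.79 ± 0.09), Ifitm3 (0.98 ± 0.13) and Parp12 (0.69 ± 0.10), and of 16 interferon gamma genes 14 rose, led by Cd274, which encodes the checkpoint ligand PD-L1 (0.70 ± 0.07). Along the T cell score 24 of 36, 15 of 16 and all 11 class I presentation genes rose, among them Slfn2 (0.80 ± 0.10), Igtp (0.80 ± 0.12), Ifng itself (0.60 ± 0.11) and Tap1 (0.46 ± 0.07). Of 4 receptors and kinases Ifnar2 and Tyk2 rose with either score.

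Cdkn2a, the tumour suppressor locus often lost in these lymphomas, did not separate the genes. Of the 8 genes 0 passed at an adjusted p of 0.05, with slopes between -0.04 and -0.02 and no unadjusted p under 0.05, where 3.30% of all genes rose and 1.48% fell with Cdkn2a. The spread of Cdkn2a was wide, from -3.71 to 3.78 after centring. Of the other pathway lists, 1 of 11 class I presentation genes fell and no other gene was called.

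On the B cell stage score, the mature minus the precursor B cell score, 0 of 8 genes passed, with slopes between -0.08 and 0.15, where 11.4% of all genes rose and 13.1% fell; of the 8, Irf7 had an unadjusted p under 0.05 (0.14 ± 0.07, adjusted p = 0.127). The stage score of D59 was -2.21, on the precursor side, while that of D46, D78, D52 and D163 lay between 2.12 and 2.62. Without D59 5 of 8 rose towards the mature side, when 14.7% of all genes did: Oasl2 (0.23 ± 0.06), Ifit1 (0.21 ± 0.08), Irf7 (0.20 ± 0.05), Ifit3 (0.20 ± 0.07) and Rsad2 (0.19 ± 0.06). T cell (5 of 11), NK cell (3 of 5) and macrophage markers (5 of 11) rose with the stage score over the 43 lymphomas as well, and their part in these slopes was not tested. With the T cell and macrophage scores in the model 1 of the 8 was called, Ifit2, which was lower (-0.28 ± 0.06). Without the 5 highest lymphomas, chosen by the level of the genes themselves, Irf7 rose (0.11 ± 0.04) and Ifit2 fell (-0.13 ± 0.04). Of 36 other interferon-stimulated genes 6 rose and 1 fell with the stage score over all 43 lymphomas, and of 11 class I presentation genes 8 rose.

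With the G2/M score, the mean of 11 mitotic genes, all 8 genes fell, where 15.6% of all genes fell and 26.1% rose. The slopes ran from -2.62 ± 0.44 for Oasl2 (adjusted p = 1.83e-05) to -0.67 ± 0.16 for Stat2 (0.00125) and -1.29 ± 0.46 for Ifit2 (0.0232). The score was 0.11 in the spleen, between -0.71 and -0.05 in the 5 highest lymphomas and between -0.79 and 0.42 in the rest. Without D59 5 of 8 fell (Irf7, Oasl2, Rsad2, Stat2 and Ifit3), beside 13.4% of all genes. Without the 5 highest lymphomas 0 did, when the slopes lay between -0.77 and 0.46 and 5.02% of all genes fell. Those 5 were chosen by the level of the genes themselves. In the order D59, D46, D78, D52 and D163 they rank 42, 41, 31, 38 and 40 of 43 in the G2/M score. That fit therefore lacks the top of the genes' range and much of the bottom of the score's range. With the T cell and macrophage scores in the model 0 passed as well, when 1.72% of all genes fell. In the 7 high-numbered lymphomas none passed, with slopes of -0.18 to -1.93, when 0.276% of all genes fell.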

How the data were processed

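The authors' deposited values are log2 expression levels of 22690 probe sets on 44 Affymetrix mouse arrays, made with RMA in the affy package per the submitters' processing notes, whose versions and genome build are not given in the sources used here. The number of arrays limits the precision. Of the probe sets 20380 had 1 gene symbol in the platform annotation, 691 had several, 1555 had none and 64 were controls. Each gene was read from its brightest probe set on average, and genes that exceeded their set's median level in no array were left out. RMA ties the levels to the arrays processed together, and column medians differed between the low-numbered and the high-numbered arrays, so the set was a term in every fit and the sets were centred on their lymphoma means.

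Genes were tested in limma 3.58.1 (R 4.3.3, eBayes with a trend on mean level) over all genes kept, leaving out the genes of a score, with Benjamini-Hochberg adjustment at 0.05 (two-sided). The script was tested on simulated data. The members and lists were chosen with earlier results of these data known. Named genes were all members, up to 4 called genes with the largest t and up to 2 not called per list, and the 10 highest and 5 lowest r to the mean of the members outside the lists. Alternatives were the set term, the filter, the probe set rule, array weights, covariates, ranks and lymphomas left out. Those without D59, and the called counts without the 5 highest lymphomas, were added after seeing the data.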

Additional observations from a re-analysis of the deposited data

Results flagged for a closer look

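Among the 7 high-numbered lymphomas, D163 stood apart from the other 6 for 3 genes. Irf7 read 9.04 in D163, and the next lymphoma read 7.62. Oasl2 read 6.50 in D163, and the next read 4.92. Rsad2 read 8.39 in D163, and the next read 7.12. In each case the gap to the next lymphoma, divided by the range of the 7, was above Dixon's 95% critical value. Chance passes that value in about 1 of 20 groups looked at singly, but these genes were flagged because of the gap. They also vary together (r of Irf7 with Oasl2 0.96 over the 43 lymphomas), so they are not 3 separate observations. D163 had a macrophage score of 2.60 and a set-centred Myc level of -1.25, and their part in its levels was not tested.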

How the results depend on the processing

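Of the 8 genes 1 was called between spleen and lymphomas, and this count was 2 with no set term, 4 within the high-numbered arrays, 5 with array weights, 4 without the 2 farthest lymphomas, 6 without the 5 highest and 2 without D59. The share of all genes called higher in the spleen rose in these settings too, except within the high-numbered arrays, where it fell. Ifit2, at -0.03, turned to 0.30 with no set term, 0.15 with array weights and 0.041 without the 5 highest. Dropping the set term moved the median of all genes to 0.41, against -0.16. For Myc the count of 6 was 0 in the 7 high-numbered lymphomas, where 32 of all 8720 genes fell. It was 0 with both cell scores, where 280 fell. For the T cell score the count of 7 was 0 in the high-numbered lymphomas, where 1 of 8710 genes rose. For the macrophage score the count of 8 was 2 in the high-numbered lymphomas, where 306 of 8710 genes rose. Without the 5 highest it was 0, where 513 rose. In that fit the slopes of Ifit2 (-0.060), Ifit3 (-0.028) and Usp18 (-0.028) turned negative. For the B cell stage score the count of 0 was 1 higher with array weights, where 982 of all 8704 genes rose. With both cell scores it was 1 lower, where 619 fell. Without the 5 highest it was 1 higher, where 758 rose, and 1 lower, where 830 fell. Without D59 it was 5 higher, where 1281 rose. For the G2/M score the count of 8 lower was 5 with no set term, where 213 of all 8710 genes fell. With ranks it was 5, where 979 fell, and without D59 5, where 1166 fell. In the high-numbered lymphomas, with both cell scores and without the 5 highest it was 0, where 24, 150 and 437 fell. The slope of Usp18 on the G2/M score turned to 0.032 with both cell scores and that of Ifit2 to 0.46 without the 5 highest. The count with an SD of 1 or more, 5, was 0 in the high-numbered lymphomas, 1 by the median absolute deviation, 0 without the 5 highest and 1 without D59. The mean r of 0.83 was 0.65 in the high-numbered lymphomas, 0.53 without the 5 highest and 0.66 by Spearman's rho. Fits to the high-numbered arrays had fewer samples, and otherwise the cause was not tested. No paired analysis was possible because the labels give no shared replicate numbers.

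A single spleen leaves no spread of its own, and the labels name no batch. The split by title number was read from the column medians. The cell scores come from the same arrays as the genes.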
